A study of Mus musculus with 20 samples.

Results

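The genes described here are 37 listed genes of the cell cycle and of DNA replication, of which 36 had a probe set with that single symbol and were measured among 18194 genes. They were chosen by name from a list, and each was read from its brightest such probe set over the 20 arrays. No filter on low values was applied, so all 36 entered every test. The measured genes comprised 8 cyclins, kinases and E2f1 of the G1 and S phases, 10 genes of replication licensing and the replication fork, 2 genes of nucleotide synthesis, 12 genes of G2 and mitosis, and 4 inhibitors of cyclin-dependent kinases. Ccnb1, which encodes the mitotic cyclin B1, was the gene not analysed here.

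The arrays came from mouse embryonic stem (ES) cells of the line J1, either wild type (WT) or lacking both de novo DNA methyltransferases (Dnmt3a-/-Dnmt3b-/-, DKO), in 5 states with 2 arrays for each state and genotype. Except as stated, both genotypes carried Gata4GR, a fusion of Gata4 with the part of the glucocorticoid receptor that binds its ligand, driven by the ubiquitous CAG promoter and activated by dexamethasone (Dex). The ES state was the undifferentiated, Dex-free culture, and PE was primitive endoderm made directly from ES cells by Dex. Flk1+ denotes mesoderm sorted for Flk1 and PDGFRα after 4 days on type IV collagen, and Dex- and Dex+ denote the same sorted cells after 4 further days without or with 100 nM Dex. Replicate 1 of Flk1+ in each genotype came from the parental line without the transgene, whereas the other 18 arrays came from 1 transgenic clone per genotype, so that genotype and clone cannot be told apart. No array of cells without the transgene received Dex, and an effect of Dex apart from Gata4GR was not measured. The labels call the replicates biological, and by the study's methods the 2 arrays of a group came from separate experiments.

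A dividing cell passes from G1 into S phase when D-type cyclins with Cdk4 or Cdk6, and cyclin E with Cdk2, inactivate the retinoblastoma proteins and so free the E2F factors. Origins are licensed when Cdc6 and Cdt1 load the Mcm helicase, and entry into mitosis is driven by Cdk1 with cyclins A and B. The spindle checkpoint kinases act later, within mitosis. Mouse ES cells cycle with a short G1 and little D-cyclin control, and the inhibitors Cdkn1a (p21), Cdkn1b (p27), Cdkn2a (p16 and p19Arf) and Cdkn2b (p15) slow or stop the cycle as cells differentiate or age.

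The labels were checked against the deleted and marker genes. Dnmt3a and Dnmt3b were lower on both DKO arrays than on both WT arrays in each of the 5 states, with Dnmt3b in ES cells at 12.63 to 13.06 in WT and 8.88 to 8.97 in DKO (log2 levels). The mean level of 6 primitive endoderm markers was highest in PE, at 12.81 to 13.17, that of 6 ES cell markers in ES cells, at 11.97 to 12.45, and that of 5 mesoderm markers in Flk1+, at 10.69 to 10.92. Endothelial and blood marker lists stayed at mean levels of at most 7.21 and 6.11. Single markers were higher, with the endothelial Tek at 12.06 and 12.15 in DKO Dex+ and 11.02 and 10.59 in WT Dex+. The blood marker Hbb-bh1 read 8.47 and 8.25 in DKO Dex+. The difference between the 3' and 5' probe sets for Gapdh, a measure of RNA quality, ran from 1.36 to 1.56 in ES cells, 1.64 to 1.89 in PE, 1.65 to 1.96 in Flk1+, 1.88 to 2.28 in Dex- and 1.82 to 2.08 in Dex+ (log2), and its part in the results was not tested. The 2 Flk1+ replicates differed by at least 2-fold in 880 genes in WT and 698 in DKO, against 20 to 256 in the other groups.

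Levels below are log2 values from robust multi-array averaging (RMA), in which a difference of 1 is 2-fold, and a gene passed when limma gave an adjusted p under 0.05 and a change of at least 2-fold, with Benjamini-Hochberg adjustment over all 18194 genes within a comparison. Each change is given with its standard error (SE) from that fit, for 2 arrays against 2. The listed genes varied widely across the 10 groups, with a median range of the group means of 2.56 against 0.94 for all genes, and a median replicate SD of 0.16 against 0.12. In bulk samples such as these, fewer cycling cells and less RNA per cell cannot be told apart.

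The averages of the replication and the mitosis genes ran together over the arrays, and that of the inhibitors ran opposite to them in the cultured mesoderm. After subtraction of each gene's mean over the 20 arrays, the 10 replication genes averaged -1.03 and -1.62 on the WT Dex- arrays, -0.84 and -1.49 in WT Dex+, -1.23 and -1.32 in DKO Dex-, and -0.06 and 0.05 in DKO Dex+. The 12 mitosis genes averaged -0.82 and -1.54, -0.80 and -1.69, -1.17 and -1.28, and 0.01 and 0.06 in the same order. Thus only the DKO Dex+ arrays, among those of cultured mesoderm, lay near the average of the series, and replicate 2 of WT was the lower one in both cultures. The 4 inhibitors averaged 1.35 and 1.79 in WT Dex-, 1.26 and 1.66 in WT Dex+, and 1.5 and 1.25 in DKO Dex-, and 0.11 and 0.26 in DKO Dex+. Across the 10 group means the mitosis and replication averages had a Pearson correlation of 0.99. These points share arrays and groups, and the value is a description.

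**Figure D1:**
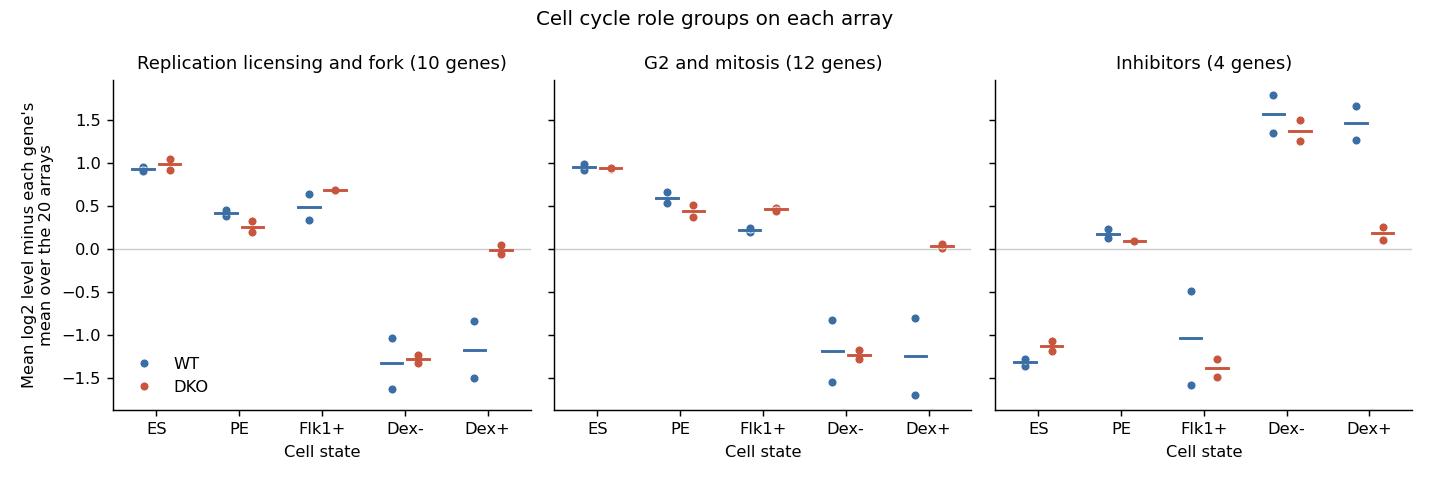
Mean log2 level of the replication genes (10), mitosis genes (12) and inhibitors (4) on each array, after subtracting each gene's mean over the 20 arrays, by cell state (points, arrays; bars, means of 2; blue, WT; red, DKO). The WT Dex-, WT Dex+ and DKO Dex- arrays lie lowest in both gene groups, between -0.80 and -1.69, and the DKO Dex+ arrays lie between -0.06 and 0.06.

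The largest shift accompanied culture of the sorted mesoderm. In Dex- against Flk1+, 5 of 36 listed genes rose and 21 fell in WT, where 7.49% of all genes passed as higher and 7.79% as lower. In DKO, 5 rose and 23 fell, against 8.23% and 8.39% of all genes. The median change of the listed genes was -1.18 in WT, beside 0.01 over all genes, and -1.54 in DKO, beside 0.03. All 10 replication genes fell in both genotypes, as did 10 of 12 mitosis genes in WT and 11 of 12 in DKO, and 3 of 4 inhibitors rose in both. The groups did not overlap for any listed gene that passed, here or in the other comparisons between groups. Passing the threshold with 2 arrays against 2 itself makes overlap unlikely, and the share among all genes was not counted. The lack of overlap is thus not a result about the listed genes. Without both parental lines, 5 rose and 20 fell in WT and 5 rose and 24 fell in DKO. That fit kept 1 Flk1+ array per genotype, from a scan day without Dex- arrays, so state and scan day cannot be told apart in it. On the scan day that held both states (Dex- replicate 1 and the parental Flk1+ array), 19 of the 26 genes in WT and 27 of the 28 in DKO differed by at least 2-fold. The Dex- and Flk1+ arrays of that day came from different lots of chips. Their direction could not change there, since these arrays also made the calls and the groups did not overlap. Over the same step 4 of 5 markers of mural and smooth muscle cells in WT and 5 of 5 in DKO lay above the Flk1+ arrays and 4 of 5 mesoderm markers lay below them in each genotype, with list means in Dex- of 10.75 to 11.28 and 7.21 to 7.82. The ES cell markers lay below Flk1+ in 6 of 6 (WT) and 5 of 6 (DKO), with list means of 7.95 to 8.65 in Flk1+ and 5.20 to 6.31 in Dex-. Of the primitive endoderm markers 3 of 6 (WT) and 4 of 6 (DKO) lay above Flk1+, as did 3 of 4 cardiac markers in each genotype. In both genotypes 1 primitive endoderm marker (Gata6) and 1 cardiac marker (Myl7) lay below Flk1+, and 1 mesoderm marker (Hand1) lay above it. The part of these markers in the cell cycle genes was not tested.

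Dex then separated the genotypes. In WT, no listed gene passed in Dex+ against Dex- by limma, where 1.6% of all genes passed, 3 had an unadjusted p under 0.05, and the changes ran from -0.76 to 0.45 with a median of -0.11. In DKO, 16 rose and 3 fell, against 4.64% and 4.99% of all genes, with a median of 0.90 beside 0.01 for all genes. The difference between the genotypes in this response passed upward for 13 genes and downward for 3, against 2.73% and 3.13% of all genes, with a median of 0.85 beside 0.02. That count depended on single arrays, falling from 16 to 4 without WT Dex- 1, 6 without WT Dex+ 2, 7 without DKO Dex- 2 or DKO Dex+ 2, 8 without DKO Dex- 1 and 9 without DKO Dex+ 1. Of the 16 genes, only Cdkn2b, Cdk6, Mki67 and Cdk2 passed that test whichever array was left out. Counts over all genes can also change with an array left out, and they are not set beside these counts. The call of Mcm3 was lost, among other settings, with the replicate block (adjusted p = 0.0512) and with scan day as a block (adjusted p = 0.0586), while Mcm5 and Top2a passed with the replicate block (adjusted p = 0.0494 and 0.0407). With the arrays of the same scan day alone (both DKO Dex+ arrays and DKO Dex- 2), all 19 genes that passed in DKO still differed by at least 2-fold. These arrays also made the calls, and without overlap between the groups the direction could not change.

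In the direct comparison of DKO with WT in Dex+, 15 genes were higher and 5 lower, against 4.81% and 4.83% of all genes. Of the 15, 9 were mitosis genes and 5 replication genes, and the other was Ccne1. The count fell from 20 to 9 when WT Dex+ 2, the array with the lowest mitosis average, was left out. The count over all genes without that array is not set beside it here. Without Dex, DKO exceeded WT in 1 gene and lay below it in 5, against 3.51% and 2.34% of all genes. With the mean of all probe sets of a gene, 1 was higher and 2 were lower. All 6 primitive endoderm markers lay above the WT Dex+ and the DKO Dex- arrays in DKO Dex+, with list means of 12.30 to 12.42 against 10.06 to 10.35 and 9.39 to 9.62. In the same arrays the mural and smooth muscle markers Acta2, Tagln and Cnn1 lay below both, while Myl9 overlapped DKO Dex- and Des overlapped WT Dex+, and the list means were 9.21 to 9.71 against 11.18 to 11.19 and 10.98 to 11.28. The mean of 4 cardiac markers was 10.73 to 11.15 against 9.57 to 9.96 and 8.62 to 9.15, with 2 of 4 above WT Dex+ and 3 of 4 above DKO Dex-. The cardiac marker Actc1 lay below DKO Dex-, at 12.49 and 11.59 against 13.01 and 13.14. All 4 endothelial markers lay above WT Dex+, and 2 of 4 lay above and 1 (Tie1) below DKO Dex-. Their list means were 6.93 to 7.21 against 6.11 to 6.25 and 6.47 to 6.66. Of these markers Tek read 12.06 and 12.15 in DKO Dex+, whereas Pecam1, Cdh5 and Tie1 were low, at 4.48 to 6.28. Of the mesoderm markers 4 of 5 lay below WT Dex+, whereas Pdgfra lay above it (12.99 and 13.06 against 9.13 and 8.97). Of the 6 ES cell markers 2 (Zfp42 and Dppa5a) lay above WT Dex+ and 1 (Nanog) below it. Against DKO Dex-, 2 ES cell markers lay above and 3 below. Of the blood markers 2 of 4 lay above WT Dex+. The part of these cell types in the cell cycle genes was not tested.

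**Figure D2:**
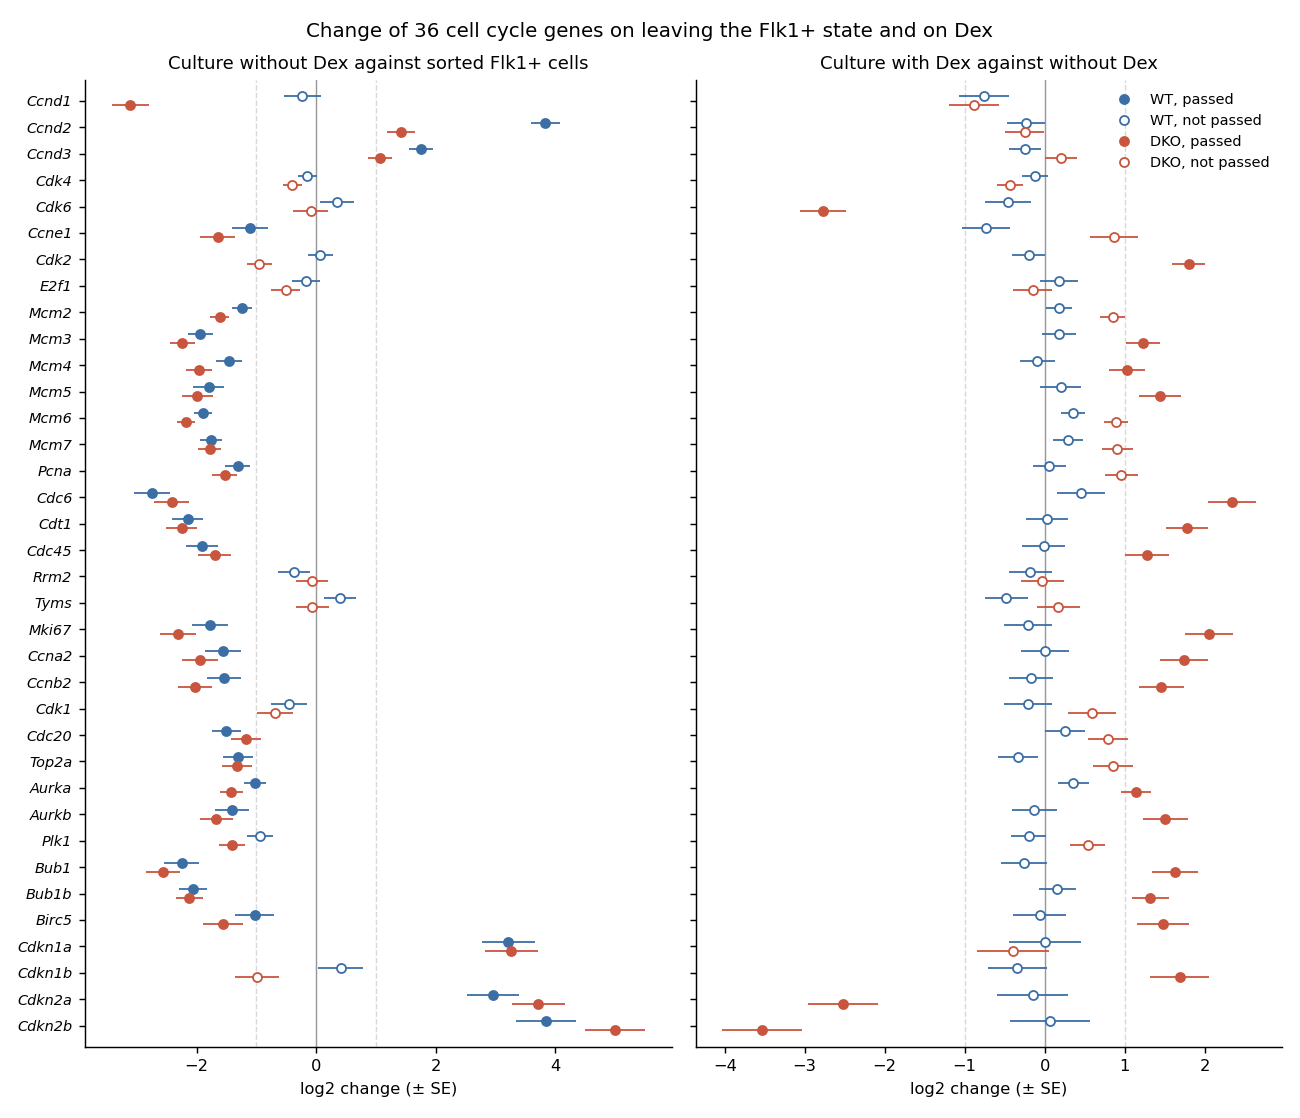
Change of each of the 36 listed genes (log2 ± SE, 2 arrays against 2) for Dex- against Flk1+ (left) and Dex+ against Dex- (right), in WT (blue) and DKO (red); filled points passed and dashed lines mark 2-fold. In the left panel the replication and mitosis genes lie left of 0 in both genotypes, and in the right panel the filled points are all DKO.

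Among the earlier states the changes were fewer. The ES arrays were scanned on a day without arrays of other states, so changes from ES cells cannot be told apart from scan day. In PE against ES, 2 genes rose and 6 fell in WT, against 7.68% and 6.55% of all genes, and 3 rose and 7 fell in DKO, against 8.13% and 8.18%. In Flk1+ against ES, 6 genes passed in WT, where 12.5% of all genes passed, and 2 in DKO, where 10.2% did. DKO differed from WT in 1 gene in ES cells (1.39% of all genes passed), in 1 gene in PE (1.96%) and, by limma, in none in Flk1+ (0.698%), where 5 had an unadjusted p under 0.05. No listed gene passed the test of the genotype difference for PE against ES (1.36% of all genes passed, and 2 listed genes had an unadjusted p under 0.05) or for Flk1+ against ES (0.791%, and 3). For Dex- against Flk1+, 2 genes passed that test, where 2.91% of all genes did. Without both parental lines these counts in Flk1+ were 7 in WT and 2 in DKO against ES (Ccnd2 and Ccnd3 in place of Ccnd2 and Ccne1), 0 between the genotypes, 0 for the genotype difference against ES and 3 for that in Dex-.

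Of the replication genes, Cdc6 had the widest range over the groups. Cdc6, the ATPase that loads the Mcm helicase at origins, read 11.60 and 11.29 in WT ES, 11.81 and 11.52 in PE, 10.82 and 11.34 in Flk1+, 8.80 and 7.85 in Dex- and 9.27 and 8.28 in Dex+. The DKO arrays read 11.88 and 11.81, 12.25 and 12.12, 11.77 and 12, 9.52 and 9.41, and 11.79 and 11.83 in the same order. In WT the cultured arrays were thus all below the others, whereas in DKO the Dex+ arrays overlapped those of ES and Flk1+. Cdc6 fell by 2.75 ± 0.30 in WT (adjusted p = 7.15e-06) and by 2.42 ± 0.30 in DKO (adjusted p = 2.42e-05) from Flk1+ to Dex-. It rose by 2.34 ± 0.30 on Dex in DKO (adjusted p = 5.84e-05), and the responses to Dex differed by 1.89 ± 0.43 (adjusted p = 0.0141). In Dex+ it was 3.03 ± 0.30 higher in DKO than in WT (adjusted p = 4.93e-06), the largest of the listed genes' increases there, and without Dex it was 1.14 ± 0.30 higher (adjusted p = 0.0219). The latter call was lost without WT Dex- 2 (0.67, adjusted p = 0.237), DKO Dex- 1 (adjusted p = 0.119) or DKO Dex- 2 (adjusted p = 0.0857).

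Cdt1, the partner of Cdc6 in licensing, read 12.76 and 12.72 in WT ES, 12.14 and 12.31 in PE, 12.28 and 12.07 in Flk1+, 10.36 and 9.70 in Dex- and 10.55 and 9.58 in Dex+. For DKO the levels were 12.41 and 12.33, 11.33 and 11.55, 11.92 and 11.44, 9.39 and 9.47, and 11.23 and 11.20. The DKO Dex+ arrays lay above all 6 other arrays of cultured mesoderm and below those of Flk1+. Cdt1 fell by 2.15 ± 0.26 in WT and 2.25 ± 0.26 in DKO on culture, rose by 1.78 ± 0.26 on Dex in DKO (adjusted p = 0.000185), and differed by 1.75 ± 0.37 between the genotypes in that response (adjusted p = 0.00948).

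The helicase subunits followed. Mcm3 read 12.16 and 12.06 in WT ES, 11.01 and 11.12 in PE, 11.01 and 11.54 in Flk1+, 9.58 and 9.08 in Dex- and 9.82 and 9.19 in Dex+. The corresponding DKO values were 12.34 and 12.15, 11.01 and 11.12, 11.63 and 11.54, 9.44 and 9.26, and 10.57 and 10.59. Mcm3 was thus highest in ES cells, and among cultured cells highest in DKO Dex+. Mcm6 read 12.36 and 12.57 in WT ES, 11.26 and 11.49 in PE, 11.78 and 11.94 in Flk1+, 10.04 and 9.88 in Dex- and 10.48 and 10.13 in Dex+. In DKO it read 12.58 and 12.50, 11.02 and 11.06, 12.23 and 12.32, 10.19 and 10.00, and 11.02 and 10.96. Mcm6, too, was highest in ES cells, with the DKO Dex+ arrays again above the other cultured arrays. On culture Mcm3 changed by -1.94 ± 0.21 (WT) and -2.24 ± 0.21 (DKO) and Mcm6 by -1.90 ± 0.15 and -2.18 ± 0.15, all of which passed, and both also fell from ES to PE, Mcm6 by 1.10 ± 0.15 in WT and fell by 1.5 ± 0.15 in DKO. On Dex in DKO, Mcm5, Mcm3 and Mcm4 rose by 1.44 ± 0.26, 1.23 ± 0.21 and 1.03 ± 0.22, and so did Cdc45, which joins the helicase when origins fire, by 1.28 ± 0.27 (adjusted p = 0.00354). Mcm2, Mcm6, Mcm7 and the sliding clamp Pcna changed by 0.85 to 0.96 there, with adjusted p-values of 0.00044 to 0.00477 but less than 2-fold.

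Short sequence motifs in the promoters differed between the roles. RefSeq promoter windows (GRCm38.p6, 250 bases before to 50 after a start) were matched for 32 of the 37 genes, not for Ccnd1, Ccnd2, Mcm4, Ccna2 and Aurkb. The E2F motif was searched as TTCCCGC or TTGGCGC, the cell cycle genes homology region (CHR) as TTTGAA or TTCGAA, and the CCAAT box as CCAAT, all on both strands. Of 9 replication genes with a window, 6 (66.7%) held an E2F match, beside 11.7% of 14453 genes on the arrays with a window (counting a match in any window of a gene) and 6.81% of all 32851 windows. The share was 14 of 26 (53.8%) in other replication genes, 6 of 13 (46.2%) in other G1 and S regulators and 3 of 11 in mitosis genes. Of all E2F matches, 6.11% shared bases with a CCAAT box. The 6 replication genes are shown because they hold 1 or more matches, with 1 match of each in capitals, in the orientation of the gene.
Mcm3 (chr1:20820276-20820305, minus strand): taaacttccgtgGCGGGAAaacttgggaag
Mcm5 (chr8:75109348-75109377, plus strand): ccaagaactttcGCGCCAAaacgtccagcc
Mcm6 (chr1:128359734-128359763, minus strand): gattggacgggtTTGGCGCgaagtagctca
Mcm7 (chr5:138171846-138171875, minus strand): tgacgacgtttcGCGCCAAtttcggttggc
Cdc6 (chr11:98908001-98908030, plus strand): ggccggtggagaGCGGGAAatcgcctgggg
Cdt1 (chr8:122568021-122568050, plus strand): tgcgcggaatccGCGGGAActacctttttg

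All 6 of these genes fell on culture in both genotypes, and so did the replication genes without a match. A match is a description of letters and was not tested for binding.

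Among the mitosis genes, the kinases Bub1 and Bub1b of the spindle checkpoint had the widest ranges over the groups (3.19 and 3.14). Bub1 read 11.55 and 11.70 in WT ES, 10.64 and 10.76 in PE, 11.13 and 11.15 in Flk1+, 9.10 and 8.68 in Dex- and 9.19 and 8.08 in Dex+. The DKO arrays read 11.42 and 11.49, 10.46 and 10.25, 11.31 and 10.68, 8.65 and 8.22, and 10.02 and 10.11. The DKO Dex+ arrays lay about midway between Dex- and Flk1+, without overlap with either. Bub1 fell by 2.25 ± 0.29 in WT and 2.56 ± 0.29 in DKO on culture, and rose by 1.63 ± 0.29 on Dex in DKO (adjusted p = 0.000786). Its responses to Dex differed by 1.89 ± 0.40 between the genotypes (adjusted p = 0.00979).

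Bub1b read 11.67 and 11.60 in WT ES, 10.51 and 10.71 in PE, 10.50 and 10.60 in Flk1+, 8.66 and 8.32 in Dex- and 9.08 and 8.22 in Dex+. For DKO the levels were 11.69 and 11.56, 10.21 and 10.35, 10.85 and 10.64, 8.69 and 8.55, and 9.72 and 10.18. Here too the DKO Dex+ arrays were above all others of cultured mesoderm. Bub1b fell by 2.06 ± 0.23 and 2.12 ± 0.23 on culture in WT and DKO, and its Dex response differed by 1.17 ± 0.32 (adjusted p = 0.0408), a call lost with the replicate block in pairs within each state (adjusted p = 0.0574). For Bub1 and Bub1b, another and dimmer probe set in each case changed little in DKO against WT in Dex+ (0.07 and -0.01, against 1.43 and 1.30 for those used).

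Mki67, the antigen Ki-67 of proliferating cells, read 11.90 and 12.05 in WT ES, 12.17 and 12.46 in PE, 12.04 and 11.83 in Flk1+, 10.38 and 9.92 in Dex- and 10.56 and 9.32 in Dex+. The corresponding DKO values were 11.88 and 11.75, 11.88 and 12.17, 12.05 and 11.78, 9.65 and 9.56, and 11.95 and 11.39. ES, PE and Flk1+ thus overlapped, and 1 of the DKO Dex+ arrays lay within their range. Mki67 fell by 1.78 ± 0.30 in WT and fell by 2.31 ± 0.30 in DKO on culture, rose by 2.06 ± 0.30 on Dex in DKO (adjusted p = 0.000186), and had the largest increase of any listed gene in the test of the Dex response between genotypes, at 2.27 ± 0.43 (adjusted p = 0.00424).

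Ccnb2, a cyclin of mitotic entry, read 10.75 and 11.26 in WT ES, 10.18 and 10.26 in PE, 10.05 and 10.07 in Flk1+, 9.03 and 8.0 in Dex- and 8.73 and 7.97 in Dex+. In DKO it read 10.50 and 10.75, 9.89 and 10.00, 10.16 and 10.25, 8.11 and 8.25, and 9.74 and 9.54. The WT replicates of each culture were about 2-fold apart or nearly so, with replicate 2 the lower, while those of DKO were close. It fell by 1.54 ± 0.28 and 2.03 ± 0.28 on culture and rose by 1.46 ± 0.28 on Dex in DKO (adjusted p = 0.00176). Of the other mitosis genes, the S and G2 cyclin Ccna2, the chromosomal passenger genes Aurkb and Birc5, and the spindle kinase Aurka rose on Dex in DKO by 1.74 ± 0.30, 1.51 ± 0.28, 1.48 ± 0.33 and 1.14 ± 0.19. Top2a, which untangles chromosomes, did not reach 2-fold there (0.85, adjusted p = 0.0254) but was 1.52 ± 0.25 higher in DKO than in WT in Dex+ (adjusted p = 0.000461). Cdc20, Plk1 and Cdk1 changed by 0.79, 0.54 and 0.59 on Dex in DKO and did not pass.

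The CHR and the CCAAT box are the elements known from promoters of genes expressed in G2 and mitosis. Of 11 mitosis genes with a window, 9 (81.8%) held a CHR match and 10 (90.9%) a CCAAT match, beside 17.5% and 42.0% of array genes and 19.2% and 37.4% of all windows. The 9 held both, as did 7.52% of all windows. In other mitosis genes 22 of 30 (73.3%) held a CHR match, and in replication genes 3 of 9 (33.3%). The CHR share was 7 of 13 (53.8%) in other G1 and S regulators, 0 of 6 in the listed G1 and S genes, and 0 of 12 in other inhibitors and p53 targets. A CCAAT match was also held by 7 of 9 replication genes (77.8%) and by 11 of 12 other inhibitors and p53 targets (91.7%), but by 2 of 6 listed G1 and S genes (33.3%). Ccnb1 and Birc5 were the mitosis genes without a CHR match. A stretch of the Ccnb2 promoter from 100 bases before to 20 after the start shows both elements in capitals, with CCAAT boxes beginning at -87, -54 and -21 and the CHR at 5 (counted from 1 at the start, with no 0).
Ccnb2 (chr9:70421535-70421654, minus strand): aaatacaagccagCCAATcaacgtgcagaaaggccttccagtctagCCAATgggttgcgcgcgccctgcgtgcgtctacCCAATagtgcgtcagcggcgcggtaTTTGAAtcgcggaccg

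The CHR of the other 8 mitosis genes is shown in capitals for comparison, since its flanks differ while the core is shared; TTCAAA in Top2a is the same motif on the other strand, and Bub1 has the TTCGAA form.
Mki67 (chr7:135716460-135716489, minus strand): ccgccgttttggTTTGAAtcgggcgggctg
Cdk1 (chr10:69352910-69352939, minus strand): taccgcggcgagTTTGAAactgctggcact
Cdc20 (chr4:118437344-118437373, minus strand): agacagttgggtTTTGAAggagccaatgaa
Top2a (chr11:99024195-99024224, minus strand): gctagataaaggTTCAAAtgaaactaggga
Aurka (chr2:172370521-172370550, minus strand): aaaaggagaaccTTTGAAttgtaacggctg
Plk1 (chr7:122159453-122159482, plus strand): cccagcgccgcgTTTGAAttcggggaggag
Bub1 (chr2:127831828-127831857, minus strand): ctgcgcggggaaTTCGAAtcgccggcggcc
Bub1b (chr2:118598231-118598260, plus strand): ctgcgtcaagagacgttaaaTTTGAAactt

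**Figure D3:**
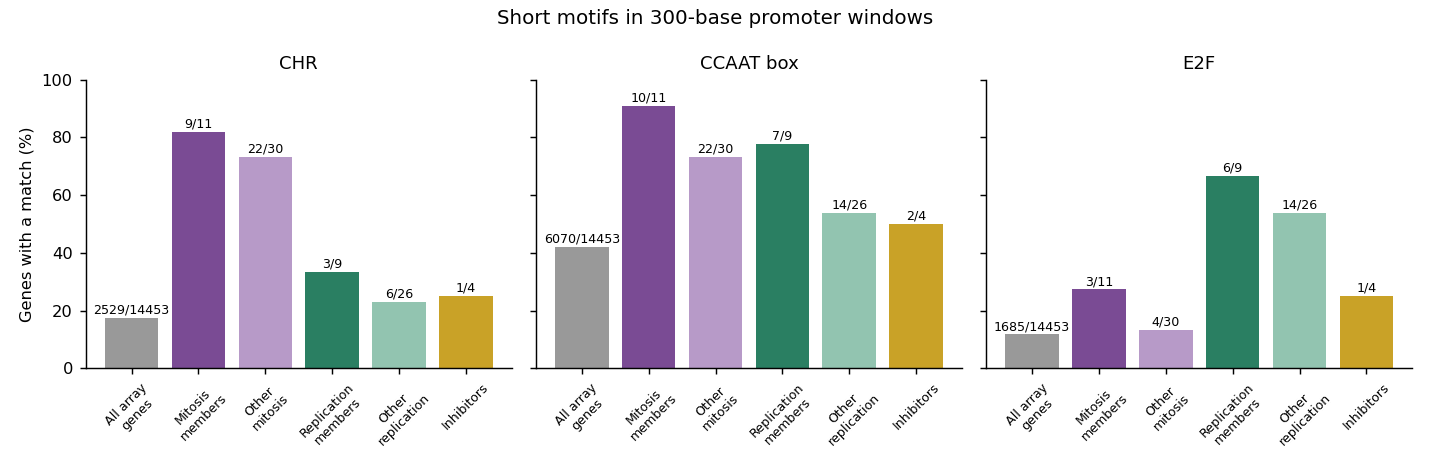
Share of genes (%) with at least 1 match of the CHR, CCAAT box or E2F motif in a promoter window of 250 bases before to 50 after the start, for all array genes with a window, the listed mitosis and replication genes, other genes of both roles, and the inhibitors; numbers over the bars are genes with a match of genes with a window. Among the lists drawn, the CHR bar is highest for the listed mitosis genes (81.8%) and the E2F bar for the listed replication genes (66.7%). The lists of G1 and S phase genes, of nucleotide synthesis and of other inhibitors and p53 targets are not drawn.

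Of the inhibitors, 3 rose in the step in which replication and mitosis genes fell. Cdkn2b, an inhibitor of Cdk4 and Cdk6, read 7.07 and 6.75 in WT ES, 7.92 and 7.77 in PE, 8.92 and 6.49 in Flk1+, 11.25 and 11.86 in Dex- and 11.47 and 11.78 in Dex+. The DKO arrays read 7.59 and 7.64, 7.88 and 8.09, 6.81 and 6.89, 11.87 and 11.84, and 8.64 and 8.01. The DKO Dex+ arrays thus lay far below the 6 other cultured arrays and overlapped the range of PE and WT Flk1+. Cdkn2b rose by 3.85 ± 0.50 in WT and 5.01 ± 0.50 in DKO on culture. The WT rise was 5.07 without the parental line, WT Flk1+ 1, and 2.64 without WT Flk1+ 2, and without the latter array the genotype difference of this rise passed (2.37, adjusted p = 0.000891). On Dex in DKO it fell by 3.53 ± 0.50 (adjusted p = 0.000121), and this response differed between the genotypes by -3.60 ± 0.70 (adjusted p = 0.00536).

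Cdkn2a shares its locus with Cdkn2b, and its 1 probe set does not separate its 2 proteins. It read 6.01 and 5.73 in WT ES, 6.70 and 7.20 in PE, 6.20 and 5.20 in Flk1+, 8.11 and 9.20 in Dex- and 7.83 and 9.18 in Dex+. For DKO the levels were 5.83 and 6.08, 6.64 and 6.75, 5.38 and 5.59, 9.52 and 8.89, and 6.34 and 7.04. Again the DKO Dex+ arrays were below the other 6 of cultured mesoderm. Cdkn2a rose by 2.96 ± 0.44 in WT and 3.72 ± 0.44 in DKO on culture and fell by 2.52 ± 0.44 on Dex in DKO (adjusted p = 0.000768), a response that differed by -2.36 ± 0.62 between the genotypes (adjusted p = 0.0315). That difference did not pass without WT Dex- 1 (-1.82), DKO Dex- 1 (-2.05), WT Dex+ 2 (-1.69) or DKO Dex+ 1 (-2.02).

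Cdkn1a, the p53 target p21, read 9.27 and 9.73 in WT ES, 12.81 and 12.33 in PE, 10.42 and 9.84 in Flk1+, 13.34 and 13.37 in Dex- and 13.28 and 13.42 in Dex+. The corresponding DKO values were 9.92 and 10.10, 12.69 and 12.48, 8.59 and 10.76, 12.87 and 13.03, and 12.49 and 12.61. Unlike Cdkn2a and Cdkn2b, it was thus high in PE and in all 8 cultured arrays. It rose by 3.07 ± 0.45 in WT and 2.57 ± 0.45 in DKO from ES to PE, and by 3.22 ± 0.45 and 3.27 ± 0.45 from Flk1+ to Dex-, whereas its change on Dex in DKO was -0.40 (adjusted p = 0.673).

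Cdkn1b, the inhibitor p27, took another course. It read 7.54 and 8.06 in WT ES, 8.83 and 8.56 in PE, 7.84 and 7.48 in Flk1+, 8.05 and 8.09 in Dex- and 7.84 and 7.62 in Dex+. In DKO it read 7.31 and 7.24, 8.49 and 8.40, 8.64 and 7.01, 7.07 and 6.61, and 8.30 and 8.75. Its highest arrays were those of PE and DKO Dex+ and 1 of DKO Flk1+, whose 2 arrays were far apart. Cdkn1b rose by 1.69 ± 0.37 on Dex in DKO (adjusted p = 0.00385), with a response 2.03 ± 0.52 above that of WT (adjusted p = 0.0269), and rose from ES to PE in DKO by 1.17 ± 0.37 (adjusted p = 0.022), a call lost when any 1 of those 4 arrays was left out (adjusted p = 0.0758 to 0.0993). Its rise on Dex in DKO did not pass without DKO Dex- 2 (1.45) or DKO Dex+ 2 (1.47). The genotype difference in that response did not pass without either of these arrays (1.80 and 1.81). It also did not pass without WT Dex- 1 (2.05), WT Dex- 2 (2.01) or WT Dex+ 2 (1.92). Across the 10 group means the correlation with the mean of the mitosis genes was -0.96 for Cdkn2b, -0.91 for Cdkn2a, -0.74 for Cdkn1a and 0.28 for Cdkn1b, given as a description.

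**Figure D4:**
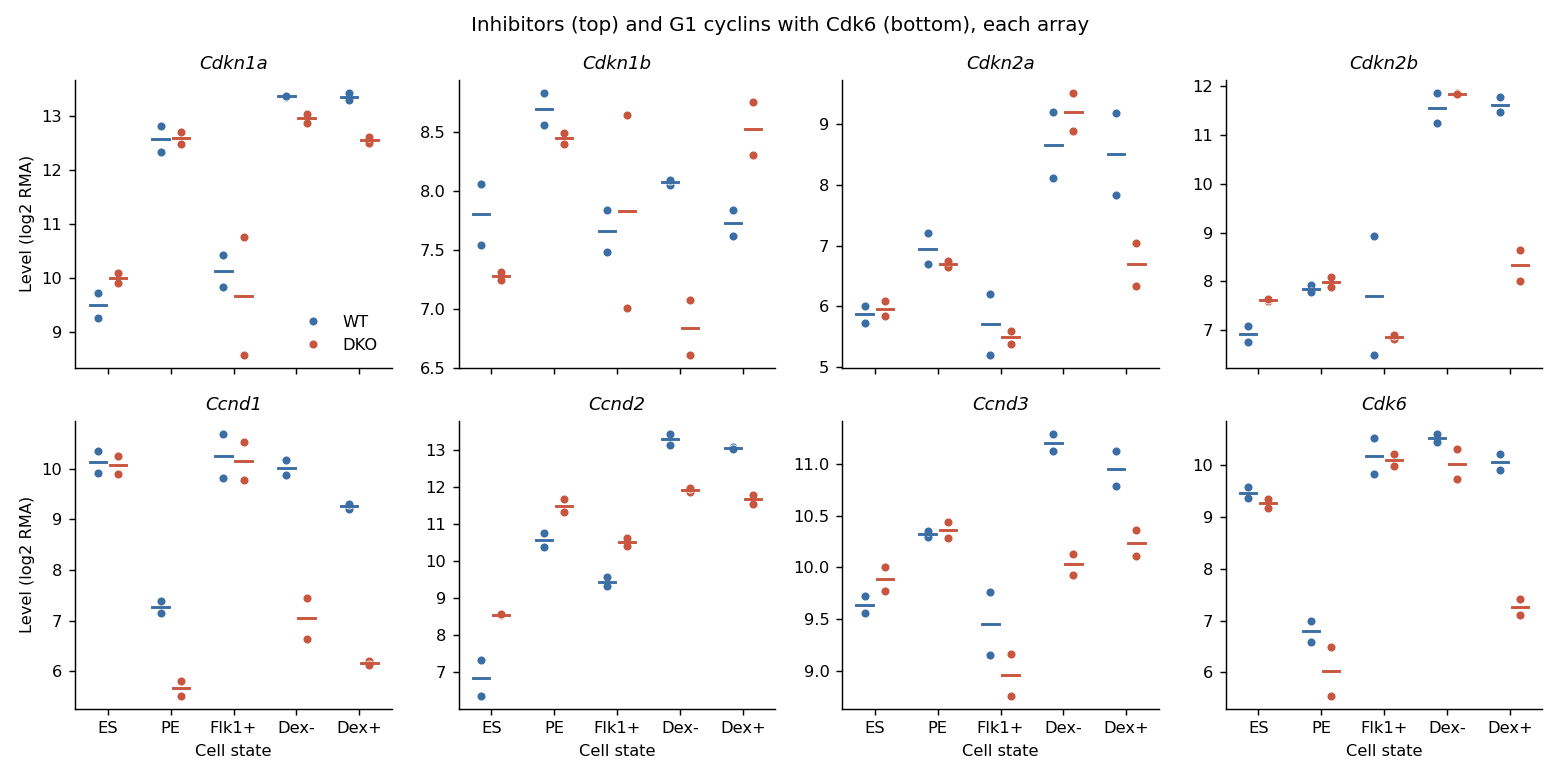
Log2 RMA level of the 4 inhibitors (top) and of the D-type cyclins and Cdk6 (bottom) on each array by cell state (points, arrays; bars, means of 2; blue, WT; red, DKO; the vertical axes differ and do not start at 0). Cdkn2a, Cdkn2b and Cdk6 are lower on both DKO Dex+ arrays than on the other 6 arrays of cultured mesoderm, and Ccnd1 is lower on all 4 DKO arrays of cultured mesoderm than on the WT ones.

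The D-type cyclins, which start G1 progression with Cdk4 and Cdk6, made up 5 of the 8 genotype differences that passed outside Dex+. Of all genes, 1.39% passed in ES cells, 1.96% in PE and 0.698% in Flk1+. In Dex-, 3.51% passed as higher and 2.34% as lower. Ccnd1 read 10.36 and 9.91 in WT ES, 7.39 and 7.15 in PE, 9.81 and 10.69 in Flk1+, 10.17 and 9.88 in Dex- and 9.21 and 9.31 in Dex+. The DKO arrays read 10.25 and 9.89, 5.81 and 5.52, 9.77 and 10.53, 6.64 and 7.45, and 6.20 and 6.12. The genotypes overlapped in ES and Flk1+ and were apart in PE, Dex- and Dex+. The level in DKO was lower by 1.61 ± 0.31 in PE (adjusted p = 0.00857), by 2.98 ± 0.31 in Dex- (adjusted p = 1.56e-05) and by 3.1 ± 0.31 in Dex+ (adjusted p = 5.42e-06). The call in PE was lost without WT PE 1, WT PE 2 or DKO PE 2. On culture Ccnd1 fell by 3.11 ± 0.31 in DKO and changed by -0.23 in WT (adjusted p = 0.663), a difference of -2.87 ± 0.44 (adjusted p = 0.00182), and from ES to PE it fell by 2.87 ± 0.31 in WT and 4.41 ± 0.31 in DKO.

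Ccnd2 read 7.33 and 6.37 in WT ES, 10.76 and 10.39 in PE, 9.58 and 9.32 in Flk1+, 13.14 and 13.44 in Dex- and 13.08 and 13.03 in Dex+. For DKO the levels were 8.54 and 8.58, 11.67 and 11.34, 10.40 and 10.62, 11.88 and 11.97, and 11.80 and 11.55. DKO thus lay above WT without overlap in ES, PE and Flk1+ and below it in both cultures. The difference passed in ES cells (1.71 ± 0.24, adjusted p = 0.00118), in Dex- (-1.37 ± 0.24, adjusted p = 0.00168) and in Dex+ (-1.39 ± 0.24, adjusted p = 0.000845), and was 0.93 in PE (adjusted p = 0.05) and 1.05 in Flk1+ (adjusted p = 0.0542). With the replicate number as a block, the difference in Flk1+ passed, at an adjusted p of 0.0449. From Flk1+ to Dex- it rose by 3.84 ± 0.24 in WT and 1.42 ± 0.24 in DKO, a difference of -2.42 ± 0.34 (adjusted p = 0.000964), and its range over the groups, 6.44, was the widest of the listed genes.

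Ccnd3 read 9.72 and 9.56 in WT ES, 10.29 and 10.35 in PE, 9.76 and 9.15 in Flk1+, 11.29 and 11.12 in Dex- and 11.12 and 10.79 in Dex+. The corresponding DKO values were 9.77 and 10.00, 10.28 and 10.44, 9.16 and 8.76, 10.13 and 9.93, and 10.11 and 10.36. It was highest in the WT cultures, above both DKO cultures. It rose on culture by 1.75 ± 0.20 in WT and 1.07 ± 0.20 in DKO and was 1.17 ± 0.20 lower in DKO Dex- than in WT (adjusted p = 0.00124), although its 3 probe sets ranged from -1.17 to 0.07 in that comparison.

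Cdk6 read 9.58 and 9.37 in WT ES, 6.59 and 7.0 in PE, 9.83 and 10.53 in Flk1+, 10.45 and 10.61 in Dex- and 9.91 and 10.23 in Dex+. In DKO it read 9.36 and 9.18, 5.55 and 6.50, 9.99 and 10.23, 9.73 and 10.31, and 7.41 and 7.10. It was low in PE of both genotypes and, among cultured cells, low in DKO Dex+ alone. From ES to PE, Cdk6 fell by 2.68 ± 0.29 in WT and fell by 3.24 ± 0.29 in DKO, and fell by 2.77 ± 0.29 on Dex in DKO (adjusted p = 8.73e-06), a response that differed by -2.30 ± 0.42 between genotypes (adjusted p = 0.00299).

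Ccne1, the cyclin that activates Cdk2 at the entry into S phase, read 12.77 and 12.72 in WT ES, 11.52 and 11.76 in PE, 11.27 and 11.65 in Flk1+, 10.94 and 9.76 in Dex- and 9.87 and 9.38 in Dex+. The DKO arrays read 12.62 and 12.73, 11.37 and 11.52, 11.38 and 11.95, 9.85 and 10.17, and 10.74 and 11.01. All 4 ES arrays were above every other array. It fell from ES to PE by 1.11 ± 0.30 in WT and 1.24 ± 0.30 in DKO, from ES to Flk1+ by 1.28 ± 0.30 and 1.01 ± 0.30, and from Flk1+ to Dex- by 1.11 ± 0.30 and 1.65 ± 0.30, and was 1.26 ± 0.30 higher in DKO than in WT in Dex+ (adjusted p = 0.00815). The fall from ES to Flk1+ in DKO did not pass without both parental lines (-0.73, adjusted p = 0.171), without DKO ES 1 or DKO ES 2 (adjusted p = 0.0855 and 0.131), or with array medians set equal (-0.97). That from Flk1+ to Dex- in WT was -0.52 without WT Dex- 2 and -0.92 without WT Flk1+ 2, and did not pass in either case. Cdk2 rose on Dex in DKO by 1.80 ± 0.21 (adjusted p = 2.31e-05) and was 1.01 ± 0.21 lower in DKO than in WT in Dex- (adjusted p = 0.00539), as was Cdkn1b, by 1.23 ± 0.37 (adjusted p = 0.0386). Without Dex, the Cdkn1b call was lost when any 1 of the 4 arrays was left out (adjusted p = 0.0721 to 0.243) and with the mean of all probe sets (adjusted p = 0.0569), and the Cdk2 call without WT Dex- 1 (-0.94) or DKO Dex- 1 (-0.8) and with the mean of all probe sets (-0.6).

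In the earlier states the following calls were also made. From ES to PE, Mcm3 fell (log2 change -1.05 ± 0.21 in WT, -1.18 ± 0.21 in DKO), as did Bub1b (adjusted p = 0.00295 and 0.000286), and Bub1 fell by 1.10 ± 0.29 in DKO. Ccnd2 rose in the same step by 3.72 ± 0.24 and 2.95 ± 0.24. From ES to Flk1+ in WT, Aurka fell by 1.45 ± 0.19, Cdk2 by 1.15 ± 0.21, Bub1b by 1.08 ± 0.23 and Aurkb by 1.07 ± 0.28, and Ccnd2 rose by 2.60 ± 0.24 in WT and 1.95 ± 0.24 in DKO.

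On the probe sets used, a few genes varied little between the groups. Rrm2, the regulated subunit of ribonucleotide reductase, read 12.76 and 12.71 in WT ES, 12.80 and 12.72 in PE, 12.21 and 12.45 in Flk1+, 12.34 and 11.57 in Dex- and 12.15 and 11.40 in Dex+. For DKO the levels were 12.57 and 12.38, 12.37 and 12.30, 12.08 and 12.80, 12.27 and 12.49, and 12.29 and 12.39. Its lowest arrays were the replicates 2 of the WT cultures, and it passed in no comparison. A dimmer probe set of Rrm2 varied more, at 11.37 and 11.42 in WT ES, 9.74 and 8.98 in WT Dex- and 9.76 and 9.06 in WT Dex+. In DKO that probe set read 11.35 and 10.85 in ES, 10.31 and 10.42 in Dex- and 10.08 and 10.20 in Dex+. Tyms, thymidylate synthase, read 5.87 and 5.22, 5.63 and 5.98, 4.82 and 5.13, 5.53 and 5.23, and 5.20 and 4.60 in the 5 WT states, and 5.59 and 5.20, 5.49 and 4.93, 4.66 and 5.10, 4.95 and 4.68, and 4.86 and 5.12 in DKO. Its probe set was dim, at percentile 25.2 of all genes, and a brighter one that names several genes was not used. The kinases Cdk4 and Cdk1 and the factor E2f1 spanned 0.99, 1.22 and 0.66 between their lowest and highest group means and also passed in no comparison.

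A further 100 measured genes of the same pathways, from lists of replication, mitosis, G1 and S phase and inhibitor genes, were tested in the same fits. In Dex- against Flk1+, 7 rose and 47 fell in WT, against 7.49% and 7.79% of all genes. Among them were Gadd45g (3.77 ± 0.65), the inhibitor Cdkn1c (2.63 ± 0.32) and the origin factor Mcm10 (-2.62 ± 0.32). In DKO, 9 rose and 55 fell, against 8.23% and 8.39% of all genes, with Pola1 (a subunit of DNA polymerase alpha, -3.02 ± 0.33), Uhrf1 (which guides maintenance methylation, -2.97 ± 0.23) and Mcm10 (-2.73 ± 0.32) changing most. On Dex, 1 rose and none fell in WT (Pmaip1, a p53 target, 1.86 ± 0.44), where 1.6% of all genes passed. In DKO 42 rose and 5 fell, against 4.64% and 4.99% of all genes, with the largest changes in Cdkn1c (-3.33 ± 0.32), Pola1 (2.38 ± 0.33) and the mitotic transcription factor Mybl2 (2.35 ± 0.23). Of these 42, 18 were among 32 replication genes and 22 among 36 mitosis genes. DKO exceeded WT in 33 and lay below it in 2 in Dex+, against 4.81% and 4.83% of all genes. The Dex responses differed upward for 25 and downward for 5, against 2.73% and 3.13%, where Kif11, a spindle motor, had the largest difference (2.46 ± 0.44).

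In the other comparisons fewer of the 100 genes passed. From ES to PE, 7 rose and 14 fell in WT, against 7.68% and 6.55% of all genes, and 5 rose and 14 fell in DKO, against 8.13% and 8.18%. From ES to Flk1+, 2 rose and 23 fell in WT, where 12.5% of all genes passed, and 1 rose and 7 fell in DKO, where 10.2% did. Mybl2 changed most from ES to Flk1+ in both genotypes (-3.65 ± 0.23 and -2.64 ± 0.23). Between the genotypes, 1 gene passed in ES cells (Gadd45b, 1.01), where 1.39% of all genes passed. In Dex-, 1 was higher and 3 were lower, against 3.51% and 2.34% of all genes, led by Pmaip1 (1.82 ± 0.44), Pola1 (-1.32 ± 0.33) and Gins2 (-1.21 ± 0.24). By limma, none passed in PE or Flk1+, where 1.96% and 0.698% of all genes passed and 12 and 13 of the 100 had an unadjusted p under 0.05.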

How the data were processed

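Total RNA (50 ng per sample) was labelled in 2 cycles and hybridised to Affymetrix mouse expression arrays. The authors summarised the arrays by RMA and deposited log2 values for 45101 probe sets, each a level relative to the other arrays and not a count; whether all 20 arrays were summarised together is not given in the sources used here. Of these, 64 controls, 932 probe sets with several symbols and 9211 without one were left out. The brightest of a gene's probe sets over the 20 arrays represented it (34958 probe sets, 18194 genes, 9012 with more than 1).

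The arrays were fitted with limma 3.58.1 in R 4.3.3, with 1 mean for each of 10 groups, since SAM, named in the study's methods, was not installed, and the fit left 10 residual degrees of freedom. Arrays with the same replicate number deviated from their group means together in each state (r = 0.18 to 0.36 between genotypes), so the fit with the replicate number as a block was also made. Arrays fell on 4 scan days. The ES arrays were scanned on a day of their own, so a difference from ES cells cannot be told apart from scan day. The number of arrays, 2 per group, limits the precision.

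The listed genes and the other pathway and marker lists were chosen with earlier results of these data known. Values on every array are given for the 4 genes with the widest range of group means in each role, both nucleotide synthesis genes, all inhibitors and all D-type cyclins. Members that passed are named largest first, up to 12 per comparison, with up to 3 other pathway genes. Of the other pathway genes, 100 were measured. Promoter sequences came from RefSeq (GRCm38.p6), and sequences of proteins were not used here.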

Additional observations from a re-analysis of the deposited data

Results flagged for a closer look

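The change on Dex differed between DKO and WT, by limma's test of that difference, in 16 listed genes (log2 difference, DKO minus WT, 2 arrays in each of the 4 groups). It was negative for the inhibitors Cdkn2b (-3.60) and Cdkn2a (-2.36) and for the kinase Cdk6 (-2.30). It was positive for the proliferation antigen Mki67 (2.27), the inhibitor Cdkn1b (2.03), the kinase Cdk2 (1.99), the checkpoint kinases Bub1 (1.89) and Bub1b (1.17), the licensing factors Cdc6 (1.89) and Cdt1 (1.75), and the helicase subunits Mcm4 (1.12) and Mcm3 (1.05), the last of which was lost with the replicate block (adjusted p = 0.0512). It was also positive for the cyclins Ccna2 (1.74), Ccnb2 (1.63) and Ccne1 (1.6) and the kinase Aurkb (1.64). Cdkn1b was the inhibitor whose difference ran with the replication and mitosis genes. Only Cdkn2b, Cdk6, Mki67 and Cdk2 passed whichever array was left out, and the call of each of the others was lost without some single array.

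The change from Flk1+ to Dex- differed between the genotypes by the same test in Ccnd1 (-2.87) and Ccnd2 (-2.42). Ccnd1 fell in DKO alone by the threshold, and Ccnd2 rose in both genotypes.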

How the results depend on the processing

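The counts of listed genes that passed were within 1.5 times the main count, apart from the following. With the mean of all probe sets of a gene, DKO against WT gave 0 in PE and 3 in Dex-, and PE against ES in WT gave 5. By adjusted p alone, DKO against WT gave 2 in PE and 1 in Flk1+, PE against ES gave 13 in WT and 16 in DKO, and Flk1+ against ES gave 10 in WT and 9 in DKO. In Flk1+, DKO against WT gave 1 (Ccnd2) with array medians set equal, with a second quantile normalization, with a trended and robust variance, with the replicate block, and with the replicate block in pairs within each state. Flk1+ against ES in DKO gave 1 with array medians set equal. For the genotype difference in PE against ES, scan day as a block gave 1 and the replicate block in pairs within each state gave 1 (Ccnd1, -1.54). The replicate block changed no other count by over 1.5 times, with 17 against 16 for the genotype difference in Dex+ against Dex- (Mcm3 lost, Mcm5 and Top2a gained), and 19 in pairs within each state, where Bub1b was lost.

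When 1 array at a time was left out, DKO against WT gave 0 to 1 in PE (0 without WT PE 1, WT PE 2 or DKO PE 2), 0 to 1 in Flk1+ (1 without WT Flk1+ 2, DKO Flk1+ 1 or DKO Flk1+ 2), 3 to 4 in Dex- (3 without DKO Dex- 1) and 9 to 25 in Dex+ (9 without WT Dex+ 2). PE against ES gave 4 to 8 in WT (4 without WT PE 1), Flk1+ against ES 1 to 4 in DKO (1 without DKO ES 2, 4 without DKO Flk1+ 2), and Dex+ against Dex- 0 to 1 in WT (1 without WT Dex- 2). The genotype difference gave 0 to 1 for PE against ES (1 without WT ES 1), 0 to 1 for Flk1+ against ES (1 without WT Flk1+ 2 or DKO Flk1+ 2) and 4 to 22 for Dex+ against Dex- (4 without WT Dex- 1, 22 without WT Dex+ 1). Counts over all genes also changed with an array left out, for example for DKO against WT in ES cells, and are not set beside these. Without both parental lines, the genotype difference of Cdkn1a for Dex- against Flk1+ turned from 0.05 to -1.32. The cause was not tested. Without the lowest 40% of genes, 35 listed genes stayed in the fit, and no count moved by more than 1.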
